A study of Mus musculus with 6 samples.

Results

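The cytoplasmic ribosome of tumour-infiltrating CD8 T cells is described here through the messenger RNAs of its proteins. Genes were chosen by symbol alone, as Rpl or Rps followed by a digit, Rplp0, Rplp1, Rplp2 or Rpsa, leaving out the 13 rows whose symbol marks a pseudogene and the 10 rows of S6 kinase genes. This gave 86 of the 15601 genes in the table. They comprise 31 genes of the small (40S) subunit, 43 of the large (60S) subunit, the 3 stalk genes Rplp0, Rplp1 and Rplp2, 8 paralogs or near copies, and Rps19bp1, which carries the name but encodes a nucleolar protein that binds Rps19 and is not part of the ribosome. The 77 genes of the first 3 classes are called canonical below. The left-out pseudogene rows held 78657 molecules, or 0.0891% of the number held by the chosen genes, and reads of near-identical copies can be split between rows.

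MB49, a mouse urothelial carcinoma cell line derived from a male C57BL/6 animal, was grown under the skin of wild-type male and female C57BL/6 mice aged 6 to 8 weeks, and tumours were taken on day 10. Live CD3+ CD8+ CD4- cells were sorted and single-cell libraries were prepared with a 10x Genomics 3′ kit, with 3 male and 3 female biological replicates. Cell names carry library numbers 1, 3 and 4 for male hosts and 2, 5 and 6 for female hosts. A library is the replicate throughout, so the spread and the p-values measure differences between libraries.

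A ribosome needs close to equal numbers of its proteins, whose genes are scattered over the genome and are transcribed at high rates in growing cells. In mammals their mRNAs begin with a cytosine followed by a run of pyrimidines, the terminal oligopyrimidine (TOP) tract, through which mTORC1 and Larp1 govern their translation and stability together. T cells raise ribosome production when antigen drives them out of quiescence, and ribosomal protein mRNAs are a large part of all mRNA in naive and memory T cells, which are small and hold little other mRNA.

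The start of transcription of 7 members is shown because the TOP tract lies there. Rps6 is an example with the C on the first base, and the other 6 carry results below. Each sequence is the sense strand from 15 bases before the annotated start to 15 bases from it onwards (RefSeq, GRCm38.p6). Capitals mark the C and the pyrimidine run that lies nearest the start. Rps6, the substrate of the S6 kinases, spans chr4:86857353-86857382 on the minus strand. Rps27 spans chr3:90213634-90213663 on the minus strand, its retrotransposed copy Rps27rt spans chr9:114982725-114982754 on the minus strand, and its paralog Rps27l spans chr9:66946071-66946100 on the plus strand. Rps24 spans chr14:24490663-24490692, Rpl12 spans chr2:32961697-32961726 and Rps2 spans chr17:24720048-24720077, all on the plus strand.
Rps6: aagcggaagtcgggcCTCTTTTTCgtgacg
Rps27: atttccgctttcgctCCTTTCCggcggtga
Rps27rt: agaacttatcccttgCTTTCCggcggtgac
Rps27l: ccactcctccccgccgCCTCTatcccggaa
Rps24: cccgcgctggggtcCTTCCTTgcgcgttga
Rpl12: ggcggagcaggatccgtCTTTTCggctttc
Rps2: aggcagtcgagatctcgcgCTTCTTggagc

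In Rps6, Rps27 and Rps27rt the C stood on the annotated first base. Of the 86 members, 65 matched the promoter table. A C at the annotated start followed by at least 4 pyrimidines was found in 14 of them (21.5%), against 2.90% of 11195 other genes of the table. Within 5 bases of the start such a run was found in 30 members (46.2%), against 23.6% of the other genes. Annotated starts can differ by a few bases from those used in T cells, so these shares describe the annotation. Among motifs searched on both strands in the 300 bases around the start, CCGGAAG, the core of sites bound by ETS factors such as GABP, was present in 26 members (40%), against 18.2% of the other genes. GGGCGG was present in 61.5% of members and 64.4% of the others, AAGATGGCG in 6.15% and 3.16%, and TATAAA in 10.8% and 9.25%. Matches of different motifs were allowed to overlap.

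The table held 26698 cells, 16743 from male and 9955 from female hosts, with 295211042 molecules (unique molecular identifiers, UMIs) in 11 deposited clusters. Male libraries 1, 3 and 4 held medians of 6976, 9210 and 6397.5 UMIs per cell, and female libraries 2, 5 and 6 held 10114.5, 9395.5 and 9043. Across libraries, 84 barcodes occurred under more than 1 library number and covered 169 cells. Cluster 2 had the lowest summed level of the CD8 T cell markers (2141 CPM, the UMIs of a gene scaled to a total of 1000000, against 2578 in cluster 7, the next lowest, and 5460 in cluster 0) and the highest of the natural killer and innate-like markers (1024 CPM, against 234 to 631 in the others). It was therefore left out of the sums called all CD8 T cells, which held 23572 cells. Clusters 6 and 10 held medians of 1788 and 1518 UMIs per cell (medians by cluster are means over the 6 library medians), with 30.6% and 24.7% of UMIs from mitochondrially encoded genes, against 4.0% to 5.0% in the other clusters. Summed levels of the B cell, tumour epithelial and red blood cell markers were at most 22 CPM in every cluster, those of the myeloid markers at most 54 CPM, and Cd79a, Krt14, Krt19, Adgre1, Hba-a2 and Hbb-bt were at or near 0. The CD4 and regulatory T cell markers summed to 707 CPM in cluster 2, 385 in cluster 10, 245 in cluster 6, 239 in cluster 9 and 223 in cluster 7. In the other clusters they summed to 65 to 115 CPM.

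Ribosomal protein mRNAs were the largest block of the transcriptome. The 86 genes are 0.551% of the genes in the table and held 29.9% of all UMIs. Of the 50 most abundant genes in all cells, 37 were members. Of the members, 76 exceeded 1000 CPM over all CD8 T cells and 79 were found in over 90% of cells. Since the kit counts 1 tag per mRNA molecule at the 3′ end, these levels are not scaled by length, and they still depend on how well each 3′ end is captured and mapped. They are spread over 19 chromosomes, with 4 on the X chromosome.

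The canonical members lay close together. Small subunit genes had a median level of 4366 CPM (1325 to 6907), large subunit genes 3253 CPM (970 to 6178) and the stalk genes 4625 CPM (3554 to 4976). The stalk is the flexible arm of the large subunit that recruits elongation factors. Rps15a, a small subunit protein, was highest, with 6604, 7555 and 6967 CPM in the male and 6688, 7165 and 6461 CPM in the female libraries. Rps24, mutated in some human patients with Diamond-Blackfan anaemia, came next at 6766 ± 571 CPM (SD, n = 6), and the order of these neighbours is within their spread. The large subunit genes Rpl32 (6178 CPM), Rpl13a (6136 CPM), Rpl13 (6124 CPM) and Rpl23 (5951 CPM) followed. Rpl13a is also known for silencing inflammatory mRNAs once released from the ribosome. Rpsa, whose protein is also known as a laminin receptor, averaged 5924 ± 186 CPM. In the stalk, Rplp1 averaged 4976 ± 576 CPM, Rplp0 4625 ± 321 CPM and Rplp2 3554 ± 405 CPM. The lowest canonical gene was Rpl31, at 970 CPM.

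The paralogs and near copies had a median of 77.7 CPM, far below the canonical genes. Highest were Rpl22l1, at 977 ± 44.6 CPM, a paralog of Rpl22, which mouse αβ T cells need for their development, and Rpl36al, a retrocopy of Rpl36a, at 903 ± 21.2 CPM. Rps27l, a paralog of Rps27 that p53 induces, averaged 243 CPM and was found in 62.0% of cells, Rps27rt averaged 97.3 CPM and Rpl7l1 averaged 58.2 CPM. Rps19bp1 averaged 30.5 CPM. Rpl6l, which the annotation types as a processed pseudogene, averaged 10.4 CPM, and Rpl39l, known from the male germ line, 2.58 CPM. Rpl3l, known from striated muscle, had 2 UMIs in all cells.

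The share of UMIs taken by ribosomal protein genes differed more between clusters than between libraries. Clusters were made by the authors from expression of these same cells, so the values that follow are a description over 6 libraries with no test. Cluster 7 had the highest share in 6 of 6 libraries, at 44.5%, 46.0% and 43.3% in the male and 46.1%, 38.7% and 40.7% in the female libraries (mean 43.2% ± 2.97). Clusters 7 and 2 had the highest summed levels of naive and central memory markers such as Lef1 and Tcf7, at 2503 ± 132 CPM in cluster 7 and 2397 ± 119 CPM in cluster 2, which is within their spread, against 901 CPM in cluster 0. Both held little of the exhaustion markers such as Pdcd1 and Havcr2, at 124 CPM in cluster 7 and 161 CPM in cluster 2, against 1833 CPM in cluster 0. In share of ribosomal protein UMIs, cluster 2 followed with 39.1% ± 2.22, cluster 9 with 33.1% ± 3.11 and cluster 1 with 29.4% ± 2.57. Cluster 9 was marked by interferon-stimulated genes, whose 6 listed members summed to 1567 CPM, against 37 to 127 CPM elsewhere.

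The middle of the order was narrow. Cluster 8 held 29.2% ± 1.43, cluster 0 held 28.8% ± 0.750, cluster 5 held 28.6% ± 0.44, cluster 3 held 27.9% ± 0.398 and cluster 4 held 27.7% ± 0.70. Neighbours differed by 0.20 ± 3.14 percentage points between clusters 1 and 8 (cluster 1 higher in 3 of 6 libraries), 0.38 ± 1.14 between 8 and 0, 0.23 ± 0.51 between 0 and 5, and 0.16 ± 0.58 between 3 and 4, so these pairs did not differ beyond their spread. Cluster 5 exceeded cluster 3 by 0.68 ± 0.46 in 6 of 6 libraries. At the top the steps were larger, at 4.14 ± 1.04 from cluster 7 to 2, 5.97 ± 1.69 from 2 to 9 and 3.74 ± 0.620 from 9 to 1, each in 6 of 6 libraries.

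Clusters 10 and 6 stood apart at 16.9% ± 3.87 and 7.98% ± 1.5, and cluster 6 was lowest in 6 of 6 libraries. These are the 2 clusters with few UMIs and a high mitochondrial share, and the part of those measures in the low share was not tested. With mitochondrial UMIs taken out of the total the shares were 22.2% and 11.5%. A share is not an amount per cell. Cluster 3, which had the highest proliferation markers (3001 CPM), held a median of 6900 ribosomal protein UMIs per cell, cluster 7 held 3373, cluster 0 held 2717 and cluster 6 held 104. Cluster 3 cells had a median of 25101 UMIs in all, against 7589 in cluster 7 and 9636 in cluster 0.

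**Figure D1:**
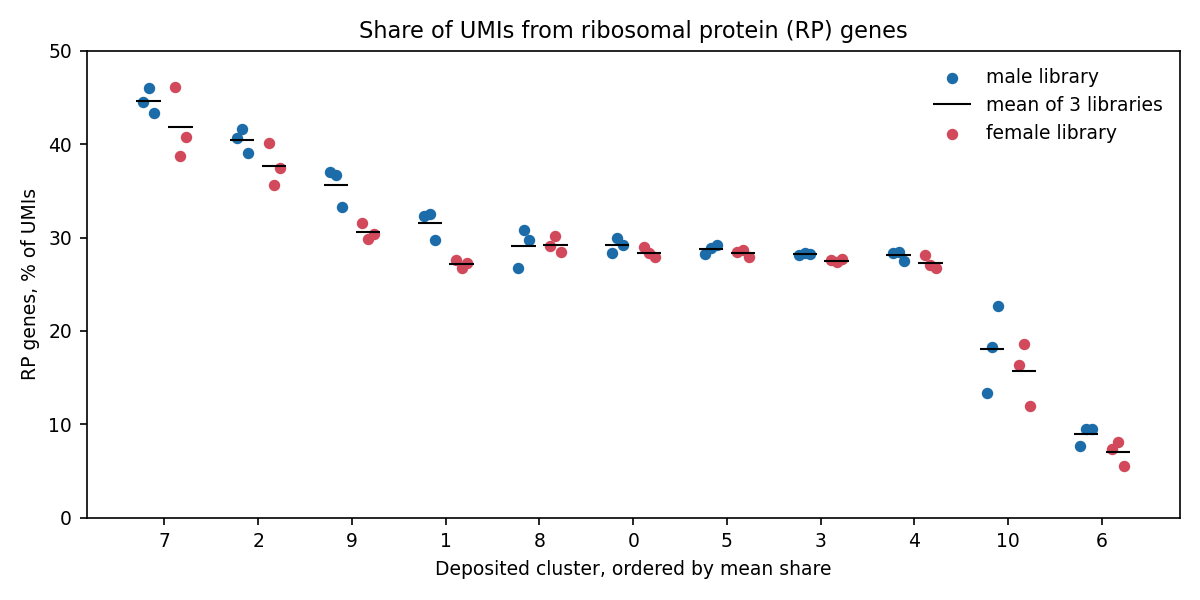
Share of UMIs from the 86 ribosomal protein genes (percent, vertical axis) in each deposited cluster, ordered by mean, with 1 point per library, lines at the means of 3 libraries, and male libraries drawn left of female libraries. Cluster 7 is highest at 43.2% and cluster 6 lowest at 7.98%, while clusters 1, 8, 0, 5, 3 and 4 lie between 27.7% and 29.4%.

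Nearly every ribosomal protein gene took part in the gap between clusters 7 and 0. The share in cluster 7 was 1.5 ± 0.083 times that in cluster 0 (n = 6 libraries). Of the 86 members, 79 were higher in cluster 7 in 6 of 6 libraries, against 17.1% of the 6944 genes with at least 10 CPM. Of the 77 canonical genes, 76 were. The ratio of levels had a median of 1.49 over canonical genes and ran between 1.02 and 2.13.

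Members of both subunits stood at the upper end. Rplp1 had 9361, 10549 and 8285 CPM in male and 11031, 8063 and 10117 CPM in female libraries in cluster 7, against 4668, 4676 and 4032 CPM in male and 4785, 3881 and 4949 CPM in female libraries in cluster 0, a ratio of 2.13. The clusters did not overlap. Rpl12, which sits at the base of the stalk, had 8792, 8715 and 9112 CPM in male and 8332, 7438 and 6667 CPM in female libraries in cluster 7, against 4170, 3960 and 4427 CPM in male and 3821, 3926 and 3541 CPM in female libraries in cluster 0, a ratio of 2.06. Rpl36a had a ratio of 2.07, Rps19, the gene most often mutated in human Diamond-Blackfan anaemia, 2.03, Rps24 1.90 and Rps27 1.84. The lowest canonical ratios belonged to the large subunit genes Rpl34, Rpl7a (1.09) and Rpl27 (1.12) and to Rps26 (1.12). Rpl34 averaged 4900 CPM in cluster 7 and 4780 CPM in cluster 0, a ratio of 1.02, and was higher in cluster 7 in 3 of 6 libraries.

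The paralogs and near copies were spread more widely. Rps27l averaged 142 ± 20.8 CPM in cluster 7, against 186 ± 12 CPM in cluster 0, and was lower in 6 of 6 libraries (ratio 0.764). Rpl7l1 had a ratio of 0.989 and Rps19bp1 of 0.979, also below the canonical range. Rpl36al (1.05), Rpl22l1 (1.49), Rpl6l (1.66) and Rps27rt (1.86) lay within it.

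**Figure D2:**
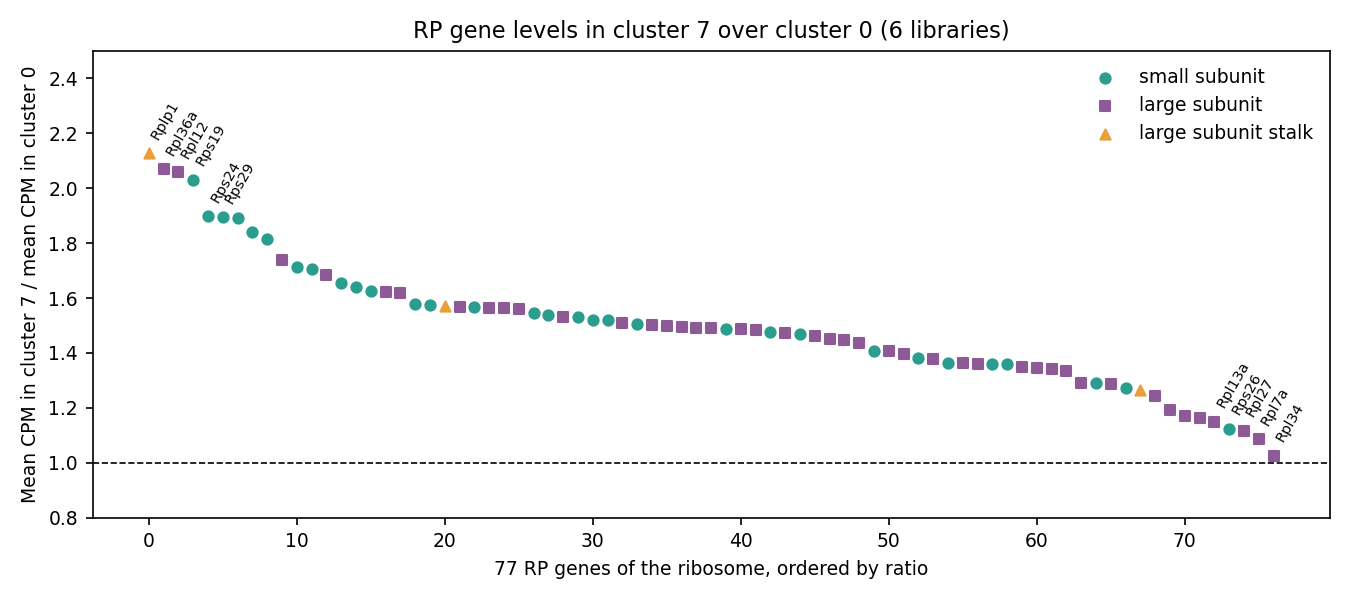
Ratio of the level in cluster 7 to that in cluster 0 (vertical axis, from means over 6 libraries) for each of the 77 canonical ribosomal protein genes, 1 point per gene in the order of the ratio, with colour and shape giving the role. The points run between 1.02 for Rpl34 and 2.13 for Rplp1, all above the dashed line of equal levels.

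The make-up of the ribosomal protein pool was then compared between clusters, by dividing each gene's share of ribosomal protein UMIs in a cluster by its share in all cells, per library. Clusters 6 and 10 and the 2 members under 10 CPM were left out. The pool was even: over 9 clusters, the range of this relative level on the log2 scale had a median of 0.345 over 84 genes, and 63 of them stayed under 0.5. Among the most even were Rps15 (range 0.09), Rps4x (0.10), Rps9 (0.11), Rpl23a (0.12) and Rpl26 (0.13).

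The 3 widest ranges belonged to members that are not canonical. Rps27l had a range of 2.05, with a relative level of 0.54 in cluster 3 and 0.53 in cluster 5. In cluster 2 its relative level was -1.51, in cluster 7 -1.26 and in cluster 9 -1.18. The proliferation markers summed to 3001 CPM in cluster 3 and 755 CPM in cluster 5, against 51.1 to 129 CPM in the other clusters compared. Cluster 6, left out here, held 1001 CPM of them. The level of Rps27l was 342, 304 and 296 CPM in male and 329, 310 and 322 CPM in female libraries in cluster 3, against 104, 94.7 and 93.6 CPM in male and 113, 118 and 121 CPM in female libraries in cluster 2. These clusters were far apart in every library. Rpl7l1, a relative of Rpl7 known for a part in ribosome assembly, averaged 106 ± 9.7 CPM in cluster 4, against 38.0 to 64.8 CPM in the other clusters compared, with a range of 1.98. Rps19bp1 averaged 56.3 ± 5.1 CPM in cluster 4, against 19.4 to 33.3 CPM in the others, with a range of 1.85. Cluster 4 also had the highest summed level of 25 genes listed for the mTORC1 pathway and the control of TOP mRNA translation (2216 CPM, against 1326 CPM in cluster 0). That list mixes genes such as Mtor, Tsc2, Larp1 and Tia1, so its sum does not measure pathway activity.

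Rps27 and Rps2 were among the canonical genes with the widest ranges. Rps27 had 2371, 2511 and 2218 CPM in male and 2639, 2249 and 2538 CPM in female libraries in cluster 3, and its relative level there lay between -0.59 and -0.34. In cluster 1 it had 5433, 6229 and 4621 CPM in male and 4647, 3640 and 4838 CPM in female libraries, a relative level between 0.38 and 0.56. Rps27 was thus a smaller part of the pool in cluster 3, which had the highest proliferation markers, in every library. Rps2 ran the other way, with 5561 ± 245 CPM in cluster 3 and 3390 ± 309 CPM in cluster 1 (range 0.79). Rps27rt (range 1.07) and Rpl36al (range 0.80) were also among the 8 widest.

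**Figure D3:**
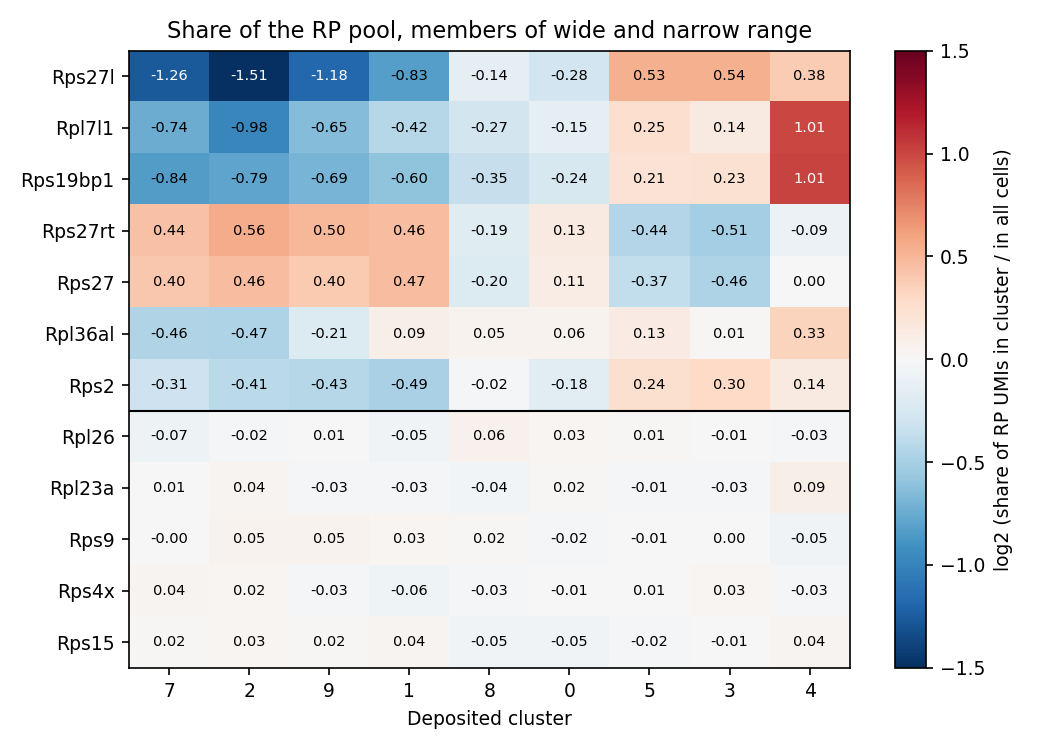
Relative level of ribosomal protein genes in 9 clusters (log2 of the gene's share of ribosomal protein UMIs in the cluster over its share in all cells, mean of 6 libraries, colour scale and printed value), for members with wide (above the line) and narrow (below it) ranges. Rps27l lies between 0.54 in cluster 3 and -1.51 in cluster 2, while Rps15 spans 0.09.

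Set against their partners, the paralogs differed among themselves. Rps27l held 13.1% ± 0.87 of the level of Rps27 in cluster 3, 12.2% in cluster 5 and 8.56% in cluster 4, against 5.02% in cluster 0, 2.09% in cluster 7 and 1.68% ± 0.26 in cluster 2. Rps27rt held 2.70% to 3.10% of Rps27 in those 9 clusters. Rps27rt shares most of its sequence with Rps27, as the starts shown above do from the run onwards, and reads that fall to either gene cannot be told apart where they are identical. Rpl22l1 held 60.9% ± 1.94 of Rpl22 in cluster 3 and 58.9% in cluster 4, against 44.8% in cluster 0 and 44.2% in cluster 1. Rpl36al held 74.4% ± 3.34 of Rpl36a in cluster 4, against 29.9% ± 5.39 in cluster 7. Its own level was 1052 CPM in cluster 4 and 950 CPM in cluster 7, while Rpl36a had 1417 CPM in cluster 4 and 3240 CPM in cluster 7. Rpl7l1 held 3.53% of Rpl7 in cluster 4 and 1.09% in cluster 2.

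The balance of the subunits moved little. Small subunit UMIs were 0.856 ± 0.014 times the large subunit UMIs in cluster 7, 0.844 in cluster 2 and 0.825 in cluster 3, against 0.798 in cluster 0 and 0.789 ± 0.021 in cluster 1. Over libraries the ratio was 0.832, 0.804 and 0.827 in males and 0.799, 0.812 and 0.804 in females, and the sexes overlapped.

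Other TOP mRNAs showed a smaller gap. The 23 measured genes of a list of translation factors and other TOP mRNAs, such as Eef1a1, Eef2 and Tpt1, summed to 54453 ± 3555 CPM in cluster 7 and 47170 CPM in cluster 0. The 77 mitochondrial ribosomal protein genes went the other way, at 3867 CPM in cluster 7 and 4492 CPM in cluster 0, and were highest in clusters 5 and 3, at 5659 and 5633 CPM. The list for the mTORC1 pathway and the control of TOP mRNA translation summed to 1392 CPM in cluster 7 and 1326 CPM in cluster 0.

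The study set male against female hosts. Over all CD8 T cells, the ribosomal protein share was 30.3%, 30.7% and 29.3% in male libraries and 28.5%, 28.0% and 27.7% in female libraries, so that every male library lay above every female library. The means were 30.1% ± 0.681 in males and 28.1% ± 0.435 in females (SD, n = 3 each), a difference of 2.04 percentage points with an exact two-sided permutation p of 0.1. With 3 libraries against 3, 0.1 is the smallest p that the 20 assignments allow. With the same mix of clusters in every library the difference was 1.72 (exact p = 0.1). Markers of cell state moved with sex in the same cells. The summed naive and central memory markers lay between 963 and 1254 CPM in male and between 736 and 913 CPM in female libraries, with 8 of 8 genes at higher fitted levels in males. The summed proliferation markers lay between 811 and 931 CPM in male and between 968 and 1080 CPM in female libraries, with 0 of 5 genes at higher fitted levels in males. Of the exhaustion markers 1 of 7, of the CD8 T cell markers 0 of 5, and of the interferon-stimulated markers tested 5 of 5, had higher fitted levels in males. The summed levels of these 3 lists overlapped by sex. None of these markers was called, and their part in the difference of shares was not tested.

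No single gene passed the test in this comparison. Of the 85 members tested with edgeR's quasi-likelihood test, 0 were called at an adjusted p under 0.05, where 0.0902% of the 12194 genes tested were called. At an unadjusted p under 0.05, 4 members were higher and 0 lower in males, and DESeq2 called 0 as well. The share of all genes at that unadjusted threshold is not given. The fitted difference was above 0 in 72 of 85 members, against 51.2% of all genes, with a median log2 fold change of 0.11, against 0.00 over all genes. In 38 members every male library lay above every female library, against 7.04% of all genes. Members share the total of the same 6 libraries and are not replicates of each other.

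By role, 29 of 31 small subunit genes (median log2 fold change 0.13) and 38 of 46 large subunit and stalk genes (median 0.10) had higher fitted levels in males, as did 5 of 7 paralogs. Rpl12 had 4863, 4377 and 4669 CPM in male and 3820, 3970 and 3609 CPM in female libraries. Its libraries did not overlap by sex, and its log2 fold change was 0.29 ± 0.096 (SE; edgeR adjusted p = 0.423). Rps24 had 7483, 7128 and 7147 CPM in male and 6240, 6552 and 6045 CPM in female libraries (log2 fold change 0.21, edgeR adjusted p = 0.591). Rpl5, which together with Rpl11 and 5S RNA binds Mdm2, had 3557, 3257 and 3357 CPM in male and 2883, 2993 and 2853 CPM in female libraries (log2 fold change 0.22, edgeR adjusted p = 0.536). Rpl6l (0.30), Rpl13 (0.21) and Rpl17 (0.19) complete the 6 members with the smallest p among those higher in males, and none of the 6 passed.

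Rps27l was the 1 member with every male library below every female library, at 239, 226 and 222 CPM in male and 262, 256 and 253 CPM in female libraries (log2 fold change -0.16, edgeR adjusted p = 0.650). The share of all genes with every male library below every female library is not given, so this does not set Rps27l apart. In all, 13 members had a value below 0, and those with the smallest p after Rps27l were Rpl15 (-0.18), Rpl41 (-0.13), Rpl27 (-0.12), Rps26 (-0.09) and Rps19bp1 (-0.04), whose libraries overlapped by sex. For Rpl15, Rpl41, Rpl27 and Rps26 the sign turned without male libraries 1 and 4, which left male library 3 alone against the female libraries. The sign of Rps19bp1 turned without female library 2. The 4 X-linked members had values of 0.19 for Rps4x, 0.13 for Rpl36a, 0.08 for Rpl10 and 0.05 for Rpl39, and none was called. Human RPS4X is known to escape X inactivation, whereas mouse Rps4x is known to be subject to it.

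Within single clusters the sexes were compared again, so that cells of 1 cluster were set against each other. In clusters 1, 3 and 9 every male library lay above every female library in share. Cluster 1 held 32.3%, 32.5% and 29.7% in male and 27.7%, 26.7% and 27.3% in female libraries, a difference of 4.30 percentage points (31.5% ± 1.57 and 27.2% ± 0.452; exact permutation p = 0.1, adjusted over 11 clusters 0.314). Cluster 9 held 37.0%, 36.7% and 33.2% in male and 31.5%, 29.9% and 30.4% in female libraries, a difference of 5.04 (35.6% ± 2.09 and 30.6% ± 0.861; exact permutation p = 0.1, adjusted 0.314). Cluster 3 differed by 0.687 (28.2% ± 0.0995 and 27.5% ± 0.179; exact permutation p = 0.1, adjusted 0.314). No cluster could pass at these group sizes. Cluster 7, with the highest share, held 44.6% ± 1.33 in males and 41.8% ± 3.82 in females, which overlapped (exact permutation p = 0.4), and cluster 8 held 29.1% ± 2.09 in males and 29.3% ± 0.873 in females (exact permutation p = 1).

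**Figure D4:**
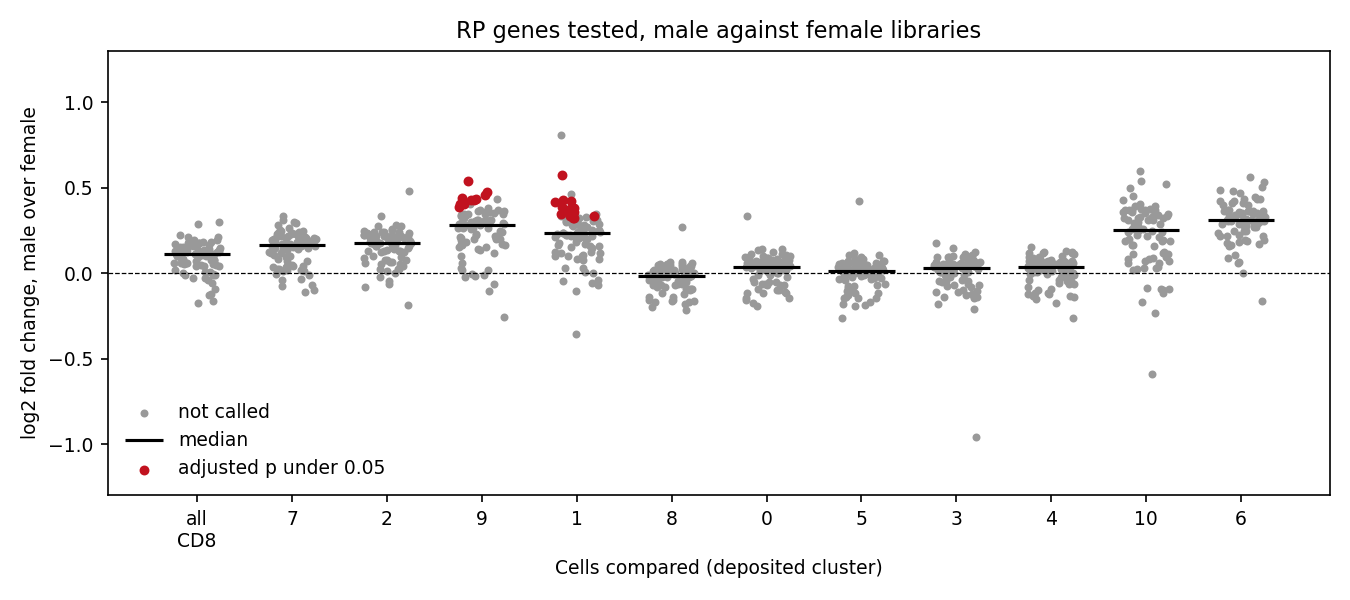
Ribosomal protein genes by sex over all CD8 T cells and within each cluster: log2 fold change of each tested member (vertical axis, 1 point per gene, male over female, edgeR), with called members in red and the median as a line. Medians run between -0.02 in cluster 8 and 0.31 in cluster 6, and called members occur in clusters 1 and 9 alone.

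In cluster 1, 14 of 85 tested members were higher in males and 0 lower (edgeR, adjusted p under 0.05), where 1.6% of the 9234 genes tested were called higher in males. They included Rpl3, Rpl5, Rpl12, Rpl13, Rpl14, Rpl17 and Rpl36a of the large subunit and Rps14, Rps16, Rps18, Rps19, Rps20 and Rps24 of the small subunit. Rpl12 had 5646, 5326 and 5224 CPM in male and 3621, 3800 and 3725 CPM in female libraries. This gap was wide beside the spread within each sex, and its log2 fold change was 0.57 ± 0.089 (SE; edgeR adjusted p = 0.000943, and 9.76e-08 to 0.0124 over 12 alternatives, all of them called). Rps24 had 9312, 9117 and 8470 CPM in male and 6794, 6811 and 6904 CPM in female libraries, a log2 fold change of 0.42 ± 0.089 (edgeR adjusted p = 0.0114; called in 9 of 12 alternatives). Rpl5 had 3648, 3293 and 3277 CPM in male and 2515, 2670 and 2648 CPM in female libraries (log2 fold change 0.42, edgeR adjusted p = 0.0136). The fitted difference was above 0 in 79 of 85 members, with a median of 0.24, and in 47 members every male library lay above every female library, against 8.48% of all genes. For single clusters, the share of all genes with a fitted difference above 0 is not given here or below. Rps27l had the lowest value, -0.36, and did not pass (edgeR adjusted p = 0.0855).

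The number of calls in cluster 1 rested on which libraries were present. Leaving out male library 1 gave 1 call, male library 3 gave 1 and male library 4 gave 26, while leaving out female library 2 gave 2, female library 5 gave 1 and female library 6 gave 17. In cells with 4000 to 8000 UMIs alone, an alternative chosen after seeing the data, 20 members were called, 13 of them among the 14. For these and later counts under alternatives, the share of all genes called is not given. They show how the number of calls moved, and not how the members stood beside other genes.

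In cluster 9, 10 of 84 tested members were higher in males and 0 lower (edgeR), where 1.12% of the 8030 genes tested were called higher in males. They were Rpl5, Rpl12, Rpl13, Rpl14 and Rpl21 of the large subunit and Rps4x, Rps16, Rps19, Rps20 and Rps24 of the small subunit. Rpl12 had 6950, 5888 and 6082 CPM in male and 4763, 4494 and 4332 CPM in female libraries, a log2 fold change of 0.54 ± 0.114 (SE; edgeR adjusted p = 0.00523; called in 11 of 12 alternatives). Rps24 had 11780, 10735 and 10093 CPM in male and 8640, 8101 and 8101 CPM in female libraries. Its log2 fold change was 0.46 (edgeR adjusted p = 0.0149, called in 8 of 12 alternatives). For both genes the lowest male library lay well above the highest female library. The fitted difference was above 0 in 77 of 84 members, with a median of 0.28, and in 44 members every male library lay above every female library, against 6.66% of all genes. Leaving out male library 1 gave 0 calls, male library 3 gave 1 and male library 4 gave 25, while leaving out female library 2 gave 5, female library 5 gave 1 and female library 6 gave 2. In cells with 4000 to 8000 UMIs alone, 7 members were called, 6 of them among the 10. Clusters 1 and 9 come from the same 6 libraries, so their calls are not independent.

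Cell state and depth moved with sex in these clusters. In cluster 1 the summed exhaustion markers lay between 317 and 435 CPM in male and between 539 and 943 CPM in female libraries, and the naive and central memory markers between 1746 and 2299 CPM in male and between 1382 and 1734 CPM in female libraries. In cluster 9 the exhaustion markers lay between 362 and 580 CPM in male and between 866 and 1161 CPM in female libraries, and the naive and central memory markers between 1710 and 2337 CPM in male and between 1002 and 1579 CPM in female libraries. The summed CD8 T cell markers lay between 2944 and 3894 CPM in male and between 4161 and 5421 CPM in female libraries in cluster 9, and overlapped by sex in cluster 1. None of the 5 was called, and 0 of 5 had a higher fitted level in males in either cluster. Mitochondrially encoded genes had higher fitted levels in males in 11 of 13 in cluster 1, where mt-Nd1 (0.41) and mt-Nd2 (0.38) were called, and in 12 of 13 in cluster 9 (median 0.34), where mt-Nd2 (0.56) and mt-Nd5 (0.47) were called, while their summed levels overlapped by sex. Of the 7 exhaustion markers, Lag3 was lower in males in cluster 1 (log2 fold change -1.43) and Entpd1 (-1.27) and Havcr2 (-1.25) were lower in cluster 9. Of the 8 naive and central memory markers, Lef1 (0.66) and Il7r (0.47) were higher in males in cluster 1 and Lef1 (0.67) and Ccr7 (1.46) in cluster 9 (edgeR adjusted p under 0.05 for each). The library medians of UMIs per cell averaged 5240 in males and 6743 in females in cluster 1, without overlap. They averaged 6052 in males and 7802 in females in cluster 9, where they overlapped, with 7245 in male library 3 and 7174 in female library 2. Among cells of cluster 1 with 4000 to 8000 UMIs the share was 31.3% ± 1.11 in males and 26.4% ± 0.880 in females, without overlap. At 8000 to 16000 UMIs it was 33.7% ± 1.71 and 28.2% ± 0.138, also without overlap. At 2000 to 4000 UMIs the sexes overlapped in cluster 1, with 27.16% to 28.03% in male and 23.92% to 27.99% in female libraries. In cluster 9 the share at 4000 to 8000 UMIs was 37.1% ± 1.90 in males and 31.2% ± 0.95 in females, without overlap. At 8000 to 16000 UMIs the sexes overlapped there, with 31.4% to 38.9% in male and 30.1% to 32.3% in female libraries. The part of the state markers and of the mitochondrially encoded genes in the sex difference was not tested.

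**Figure D5:**
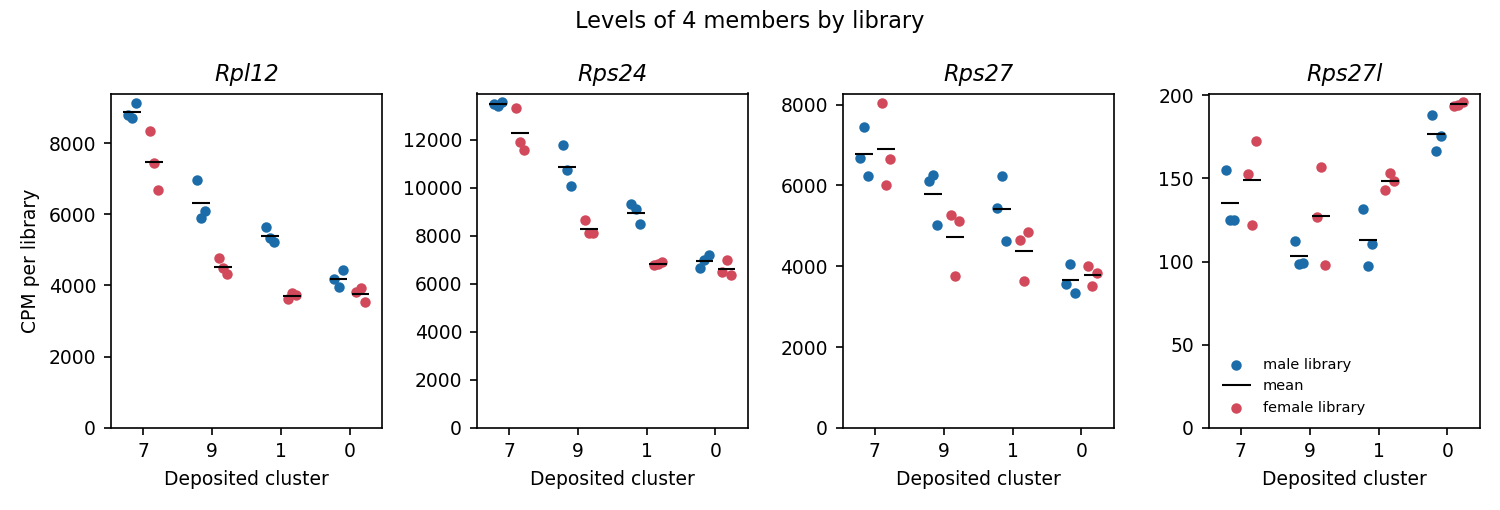
Levels of Rpl12, Rps24, Rps27 and Rps27l in CPM (vertical axes) in clusters 7, 9, 1 and 0, with 1 point per library, male libraries left of female libraries and lines at the means of 3 libraries. In clusters 1 and 9 the male points of Rpl12 and Rps24 lie above all female points, those of Rps27 overlap with them, and Rps27l is higher in cluster 0 than in cluster 7.

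In the other 9 clusters, 0 of 82 to 85 tested members were called in the edgeR test. The share of all genes called in either direction was 0.139% in cluster 0, 0.358% in cluster 2, 0.142% in cluster 3, 0.105% in cluster 4, 0.0979% in cluster 5, 0.181% in cluster 6, 0.168% in cluster 7, 0.0968% in cluster 8 and 0.274% in cluster 10. At an unadjusted p under 0.05, 12 members passed in cluster 6, 6 in cluster 2 and at most 1 in each of the rest. The share of all genes at that unadjusted threshold is not given, so these counts do not set the members apart. In cluster 7 the fitted difference was above 0 in 76 of 84 members, with a median of 0.16. The male libraries of Rpl12 given above for cluster 7 all lay above the female libraries, with a log2 fold change of 0.31 that did not pass (edgeR adjusted p = 0.791). Without female library 2, 23 members were called in cluster 7 and 2 in cluster 2. The share of all genes called without that library is not given.

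Whether the sex difference itself differed between cell states was tested as an interaction, with clusters 0 and 8 together as the reference state and the library as a block. For cluster 7, 0 of 85 members were called (edgeR), where 0.103% of 10653 genes were called in either direction, and 0 passed at an unadjusted p under 0.05. The smallest p values belonged to Rpl7l1 (0.30 on the log2 scale), Rpl8 (0.24), Rps27rt (0.19) and Rpl23 (0.25), with edgeR adjusted p between 0.766 and 0.797.

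The same test for clusters 1 and 9 was added after seeing the data. For cluster 1, 11 of 85 members had a larger male-over-female difference than in clusters 0 and 8, where 0.669% of all genes did. Rps27rt differed by 0.54 (edgeR adjusted p = 0.00187, called in 10 of 10 alternatives) and Rpl12 by 0.46 (adjusted p = 0.00659, called in 8 of 10). Rps27 differed by 0.43 (adjusted p = 0.0114, called in 7 of 10) and Rps21 by 0.41 (adjusted p = 0.0168, called in 7 of 10). Rps27rt had 189, 196 and 106 CPM in male and 140, 94.0 and 132 CPM in female libraries in cluster 1, against 113, 122 and 77.7 CPM in male and 126, 86.1 and 133 CPM in female libraries in cluster 0. The sexes overlapped in both clusters for this gene, which was not called within cluster 1 (log2 fold change 0.46, edgeR adjusted p = 0.569), and they overlapped for Rps27. The interaction test compares clusters within each library, and its fitted values differ from those of a single cluster. Dropping male library 1 gave 10 calls, male library 3 gave 2 and male library 4 gave 30, while dropping female library 2 gave 1, female library 5 gave 1 and female library 6 gave 5.

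For cluster 9, 14 of 85 members had a larger difference than in clusters 0 and 8, where 0.74% of all genes did. Rps27 differed by 0.45 (edgeR adjusted p = 0.00364), Rps29 by 0.43 (adjusted p = 0.00646), Rpl12 by 0.42 (adjusted p = 0.00824) and Rps19 by 0.43 (adjusted p = 0.00841). Each was called in 8 of 10 alternatives. Rplp1, Rplp2, Rps20, Rps21, Rps24 and Rpl36a were among the others. Dropping male library 1 gave 7 calls, male library 3 gave 1 and male library 4 gave 52, while dropping female library 2 gave 10 (9 higher and 1 lower), female library 5 gave 0 and female library 6 gave 7. Both added comparisons share the libraries and the cells of clusters 0 and 8.

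Genes that act beside the ribosomal proteins were compared by sex in the same fits. For the counts that follow, the share of all genes called in either direction was 3.8% in cluster 1 and 3.41% in cluster 9, beside the 0.0902% over all CD8 T cells. Of the 23 other TOP mRNAs, 16 had higher fitted levels in males over all CD8 T cells, and the 1 called gene, Eif2s3x, was lower in males (log2 fold change -0.76, edgeR adjusted p = 0.00677). Eif2s3x is X-linked and known to escape X inactivation in mice. In cluster 1, 3 of these 23 were called: Npm1, a nucleolar chaperone, was higher in males (0.33), and Eif2s3x (-0.69) and Vim, an intermediate filament protein, (-0.60) were lower. In cluster 9, Vim alone of the 23 was called, and was lower (-1.001). Of the genes listed for the mTORC1 pathway and the control of TOP mRNA translation, 0 of 24 were called over all CD8 T cells. The smallest p belonged to Rragd, at 1.31, and Tial1, at -0.18. From the same list, Eif4ebp1, a translational repressor that mTORC1 inactivates, was lower in males in cluster 9 (-1.27, edgeR adjusted p = 0.00214). Of the 77 mitochondrial ribosomal proteins, 38 had higher fitted levels in males over all CD8 T cells and 0 were called. In cluster 1, Mrpl23 was higher (0.62) and Mrpl4 lower (-0.41), and in cluster 9 Mrps16 was lower (-0.51). None of the 10 tested transcription factors and nuclear supply genes, such as Myc and Gabpa, was called over all CD8 T cells.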

How the data were processed

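CD8 T cells from 3 male and 3 female hosts were profiled. Cell Ranger, Seurat and build mm10 are named in the submitters' processing notes, with no versions. The submitters' filters on cells are not stated in these sources. The deposited table holds raw UMI counts, and the deposited metadata gives other values (sex, genes per cell, cluster number). Columns are cells with no label of a numbered replicate, so the library number and the deposited sex were used. No doublets were removed here. Libraries held 25562319 to 66105318 UMIs.

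Counts were summed per library, or per library and cluster (at least 20 cells, smallest sum 93), and compared with edgeR 4.0.16 in R 4.3.3 (quasi-likelihood test, its filter on low counts, TMM, Benjamini-Hochberg adjustment over all genes of a fit; called at an adjusted p under 0.05). DESeq2 1.42.0, limma-voom (limma 3.58.1), other scalings, filtered cells (at least 1000 genes, at most 10% mitochondrial) and left-out libraries were alternatives. Fits were tested on simulated data. CPM are counts of a sum scaled to 1000000, with no other scaling. Shares were compared by exact permutation. Promoter sequences came from RefSeq and gene positions from GENCODE M21. Members and lists were chosen with earlier results of these data known. Named genes are the highest and lowest members, the stalk, Rpsa, the paralogs, the widest and narrowest relative ranges, the members with the smallest p or called, and the called members of the other lists; the remaining called members in clusters 1 and 9 and the ends of the ratio between clusters 7 and 0 were named after their values were seen. A few items that these rules name are not reported here.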

Additional observations from a re-analysis of the deposited data

Results flagged for a closer look

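The sex difference of ribosomal protein genes differed between clusters in the added interaction tests, with clusters 0 and 8 as the reference state (edgeR, adjusted p under 0.05). In cluster 1, 11 members were called, and those with the smallest p were Rps27rt (0.54 on the log2 scale), Rpl12 (0.46), Rps27 (0.43) and Rps21 (0.41). In cluster 9, 14 members were called, and those with the smallest p were Rps27 (0.45), Rps29 (0.43), Rpl12 (0.42) and Rps19 (0.43). These comparisons were chosen after seeing the data, and the counts ran between 1 and 30 for cluster 1 and between 0 and 52 for cluster 9 when 1 library was left out.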

How the results depend on the processing

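No paired analysis was possible because library numbers carry no replicate number of the labels. Over all CD8 T cells, 0 members were called under the alternatives that kept more than 1 library per sex. The median log2 fold change was 0.14 with cluster 2 included and 0.056 to 0.15 with 1 library left out. It was 0.18 without male libraries 1 and 4, a setting chosen after seeing the data that left male library 3 alone against the female libraries. Without male libraries 1 and 4 the values of Rpl15 (0.19), Rpl41 (0.10), Rpl27 (0.19) and Rps26 (0.12) turned positive, and Rps19bp1 turned to 0.0052 with the same cluster mix and lay between -0.082 and 0.0083 with 1 library left out. The share difference in cluster 8 turned to 0.0193 as a mean over cells and lay between -1.02 and 1.00 with 1 library left out. Without the filter on low counts, 27 members were called in cluster 1, 22 in cluster 9 and 24 in the cluster 1 interaction. With 1 library left out, calls ran from 1 to 26 in cluster 1, 0 to 2 in cluster 2, 0 to 23 in cluster 7, 0 to 25 in cluster 9, 1 to 30 in the cluster 1 interaction and 0 to 52 in the cluster 9 interaction. The share of all genes called in these alternative fits is not given. Without mitochondrial UMIs the shares were 30.1% in cluster 0, 29.1% in 3, 29.0% in 4, 29.9% in 5, 11.5% in 6 and 22.2% in 10, and as a mean over cells 27.3% in 3, 27.0% in 4 and 28.0% in 5. The cause of these changes was not tested. Of the other alternative values, 371 that answer a comparison and 372 of single genes or of medians within single clusters counted as unchanged. A single gene was unchanged if it kept its direction and stayed called or not called, and 24 values of single genes were no longer called. A count of calls was unchanged within a ratio of 1.5, and a share by cluster or a median within the SD over libraries. For the share tests only the direction could change, since no p could fall under 0.05. Clusters 6 and 10 left too few filtered cells for a value. The 3 libraries per sex limit every test of a share to a p of 0.1.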
